A study of Mus musculus with 6 samples.

Results

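YAP and TEAD genes were followed in cultured mouse aortic vascular smooth muscle cells (VSMCs). The set has 10 members, Ctgf, Cyr61, Ankrd1, Amotl1, Amotl2, Ajuba, Lats2, Tead1, Axl and Crim1, which were found by exact symbol among 22482 genes, and all 10 were expressed highly enough to be tested among 11612. The cells were of the C57BL/6 strain, were grown with 10% fetal bovine serum and were collected 48 h after adenovirus was added, per the labels. The labels give 3 libraries a Myocd knockdown virus and 3 libraries a negative control virus, while the text on the series' design speaks of wildtype cells instead of the latter, so whether those cells carried virus is not certain. The labels do not tie replicates to separate cultures or mice, and p-values therefore measure only how far these libraries scatter, and that scatter may be technical.

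The Hippo pathway is a kinase cascade in which MST kinases with SAV1 activate LATS kinases, which phosphorylate the coactivators YAP and TAZ and keep them out of the nucleus. Unphosphorylated YAP and TAZ enter the nucleus and bind TEAD factors, which carry them to DNA, and Ctgf, Cyr61 and Ankrd1 are the target genes most often used to read their activity. Several target genes, such as Lats2 and Amotl2, encode inhibitors of YAP and so form a negative feedback. In smooth muscle the pathway responds to stretch, stiffness and actin tension, and YAP is known to interfere with myocardin, which activates contractile genes together with serum response factor (SRF).

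The RNA of Myocd, the gene targeted according to the labels, was high where they say knockdown: 131.7, 130.1 and 145.5 FPKM, a fragment count divided by transcript length and library size. The control-labelled libraries had 0.0355, 0 and 0.125 FPKM, where the 0 allows up to 3 fragments. Groups are therefore named by their labels, and a gene called higher was higher where Myocd RNA was higher. Recovered fragments over coding genes ranged from 7528170 to 9793781 per library. Of 8 smooth muscle markers, Myh11 and Cnn1, which define contractile cells, stayed under 0.5 FPKM in all 6 libraries. The summed level of the list was 405.2 to 429.7 FPKM in the knockdown-labelled libraries and 122.3 to 147.7 in the control-labelled ones. Most of that difference was Acta2, which averaged 340.2 against 67.2 FPKM. Acta2, Myl9 and Lmod1 passed in limma. Smtn (56.5 against 57.6 FPKM), Mylk (7.74 against 7.31) and Tagln (7.52 against 0.637) did not. Epithelial Krt19 was at 224.9 to 236.1 FPKM in the knockdown-labelled libraries and 246.6 to 273.1 in the control-labelled ones. These ranges did not overlap, and Krt19 did not pass (limma adjusted p = 0.161). Mesothelial Msln was at 73.1 to 86.9 FPKM over all 6 libraries. The rest of the 7 mesothelial and epithelial markers were absent or low. Epcam was at 0, and Cdh1, Upk3b, Wt1 and Krt18 reached at most 0.155, 0.560, 1.05 and 1.47 FPKM. The skeletal muscle list summed to 9.54 to 11.5 against 1.12 to 1.83 FPKM, with Acta1 at 7.91 to 9.93 against 0 to 0.147 and with Myog, Ckm and Myh4 at 0. The part of these marker differences in the results below was not tested. Summed markers of fibroblasts (78.1 to 90.4 against 81.6 to 94.1 FPKM), macrophages and leukocytes (20.6 to 24.5 against 22.4 to 26.4) and cardiac muscle (6.14 to 11.9 against 9.75 to 11.9) overlapped between the groups. Of 8 endothelial markers 7 stayed under 0.5 FPKM and Vwf rose, with list sums of 1.30 to 2.43 against 0.468 to 1.04 FPKM. In bulk RNA, fewer cells of a type and less RNA per cell cannot be told apart.

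TEAD factors bind the hexamer CATTCC (the core of the M-CAT element), and the sequences before the start sites of Ankrd1, Cyr61 and Ajuba show how unlike the arrangement is among these genes. They are the 250 bases upstream of the RefSeq start, on the gene's own strand in GRCm38.p6, and capitals mark the core on either strand. They were chosen because Ankrd1 was called higher while Cyr61 and Ajuba were not.
Ankrd1, chr19:36119845-36120094, minus strand: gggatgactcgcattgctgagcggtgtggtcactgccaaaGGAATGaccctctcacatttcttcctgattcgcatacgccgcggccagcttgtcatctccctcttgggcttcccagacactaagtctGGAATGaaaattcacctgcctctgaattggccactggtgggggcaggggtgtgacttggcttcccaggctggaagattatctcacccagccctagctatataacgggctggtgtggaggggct
Cyr61, chr3:145649986-145650235, minus strand: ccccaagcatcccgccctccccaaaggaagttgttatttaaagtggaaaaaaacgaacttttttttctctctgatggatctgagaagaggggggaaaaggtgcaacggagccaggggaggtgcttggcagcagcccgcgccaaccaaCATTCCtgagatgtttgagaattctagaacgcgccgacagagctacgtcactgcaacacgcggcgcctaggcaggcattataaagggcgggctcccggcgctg
Ajuba, chr14:54577662-54577911, minus strand: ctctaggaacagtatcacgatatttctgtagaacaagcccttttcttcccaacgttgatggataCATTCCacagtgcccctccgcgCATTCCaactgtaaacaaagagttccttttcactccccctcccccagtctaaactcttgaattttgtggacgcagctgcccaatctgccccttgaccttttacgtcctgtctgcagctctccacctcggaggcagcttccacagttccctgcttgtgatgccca
Ankrd1 holds 2 cores, 118 to 123 and 205 to 210 bases before the start, both on the strand opposite to the gene. Cyr61 holds 1 core, 98 to 103 bases before the start, on the gene's own strand. Ajuba holds 2 cores on its own strand, 159 to 164 and 181 to 186 bases before the start. Of the members 8 have a window in the RefSeq table, 9 windows in all, since Lats2 is listed at more than 1 start. Of those 8 members 6 hold a core: the 3 shown, Amotl2, Axl and Crim1. Some listed starts are not the outermost start of the gene. The windows of Amotl2 (chr9:102717554-102717803) and Amotl1 (chr9:14615001-14615250) lie within the gene spans given below. Windows of the same length before all 32851 listed starts hold a core in 12.6% of cases. Amotl1 and Lats2 held none, and Ctgf and Tead1 have no entry. The AP-1 element TGANTCA (either strand, found in 6.75% of all windows) and the SRF-binding CArG box (1.47% of all windows) matched in 0 of these 8 members. A match is a description of the letters, and the set was assembled as TEAD-linked genes.

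The secreted CCN proteins Ctgf and Cyr61 are the best known targets, and Ctgf showed the widest separation of the set. Ctgf (ENSMUSG00000019997, chr10:24595442-24598683, plus strand), which encodes connective tissue growth factor and promotes matrix production, was at 33.4, 34.0 and 35.8 FPKM in the knockdown-labelled libraries and at 12.5, 12.9 and 18.7 FPKM in the control-labelled ones. The groups did not overlap, and control 3 stood above the other two controls. Group means were 34.4 ± 1.26 and 14.7 ± 3.47 FPKM (SD, n = 3 each), a 2.34-fold difference. Ctgf rose in the fit of all genes (log2 fold change 1.24, SE 0.15, 95% interval 0.90 to 1.59, limma adjusted p = 0.0106). An exact two-sided permutation test of Ctgf alone returned p = 0.1, and no smaller value is possible with 3 libraries on each side. The call in FPKM did not hold without knockdown 1 (adjusted p = 0.0521), knockdown 2 (0.0556), control 1 (0.0514) or control 2 (0.0539), while the log2 fold change stayed between 1.14 and 1.27 in those fits.

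The fragments behind Ctgf separated the groups more tightly than its FPKM. Recovered fragments, scaled as CPM to the library total after TMM adjustment, were 88.9, 91.3 and 96.8 against 33.1, 34.0 and 39.5. Control 3 was thus only slightly above the other controls in CPM. On fragments the fold was 2.60, and edgeR called Ctgf higher (log2 1.38, adjusted p = 5.98e-07). Without control 3, Ctgf in FPKM had a log2 fold change of 1.43 (limma adjusted p = 0.000676). Of the 4 transcripts listed in the deposited noncoding table as antisense to Ctgf, none had over 2.53 fragments summed over the 6 libraries.

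Cyr61 (ENSMUSG00000028195, chr3:145646971-145649985, minus strand), the other CCN member of the set and an inducible adhesion ligand, was much more abundant and moved little. It was at 200.3, 202.5 and 220.9 FPKM in the knockdown-labelled libraries and at 186.0, 198.2 and 200.1 FPKM in the control-labelled ones. The lowest value of the first group exceeded the highest of the second by a factor of 1.001, so the groups just failed to overlap in FPKM, and in CPM they overlapped. Cyr61 did not pass in limma (log2 0.09, SE 0.05, 95% interval -0.03 to 0.22, adjusted p = 0.337) or in edgeR (log2 0.11, adjusted p = 0.174). Knockdown 3 carried the highest value, and without it the log2 fold change was 0.05 (limma adjusted p = 0.584). A lincRNA that starts head to head with Cyr61, Gm17501, had 10, 15 and 15 fragments against 8, 11 and 14. Of the remaining CCN genes, Wisp1 averaged 19.7 against 18.7 FPKM and Wisp2 1.06 against 0.658, neither passed, and Nov and Wisp3 were too low to test. Limma and edgeR each called 1 of the 4 tested CCN genes, Ctgf, where they called 3.44% and 9.95% of all tested genes.

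Ankrd1 (ENSMUSG00000024803, chr19:36111965-36119844, minus strand) encodes a muscle ankyrin repeat protein that binds titin and enters the nucleus under stretch. It was at 98.7, 98.4 and 101.1 FPKM in the knockdown-labelled libraries and at 73.0, 70.4 and 76.9 FPKM in the control-labelled ones. The groups were well apart, with a spread of 1.49% (coefficient of variation) in the first and 4.43% in the second. Ankrd1 rose 1.35-fold (log2 0.44, SE 0.05, 95% interval 0.33 to 0.55, limma adjusted p = 0.00859). In edgeR it rose by the same amount (log2 0.45, adjusted p = 0.000211). The call held in each of the 20 other settings tried, with log2 fold changes of 0.41 to 0.47 and adjusted p up to 0.0482. Its relatives were far lower, with Ankrd23 at 0.870 against 1.016 FPKM, not passed, and Ankrd2 listed at 0 in every library. Of 8 cardiac muscle markers, Myh6, Myh7, Nppa and Myl2 stayed under 0.5 FPKM. Tnnt2 was at 4.38 to 6.38 FPKM and Nkx2-5 at 1.24 to 2.25 over all 6 libraries. Tnni3 was at 0.402 to 0.809 FPKM in the knockdown-labelled libraries against 1.07 to 3.63 and did not pass (limma adjusted p = 0.0992). Myl7 was at 2.55 FPKM in knockdown 3, at 0.454 in control 3 and at 0 elsewhere.

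**Figure D1:**
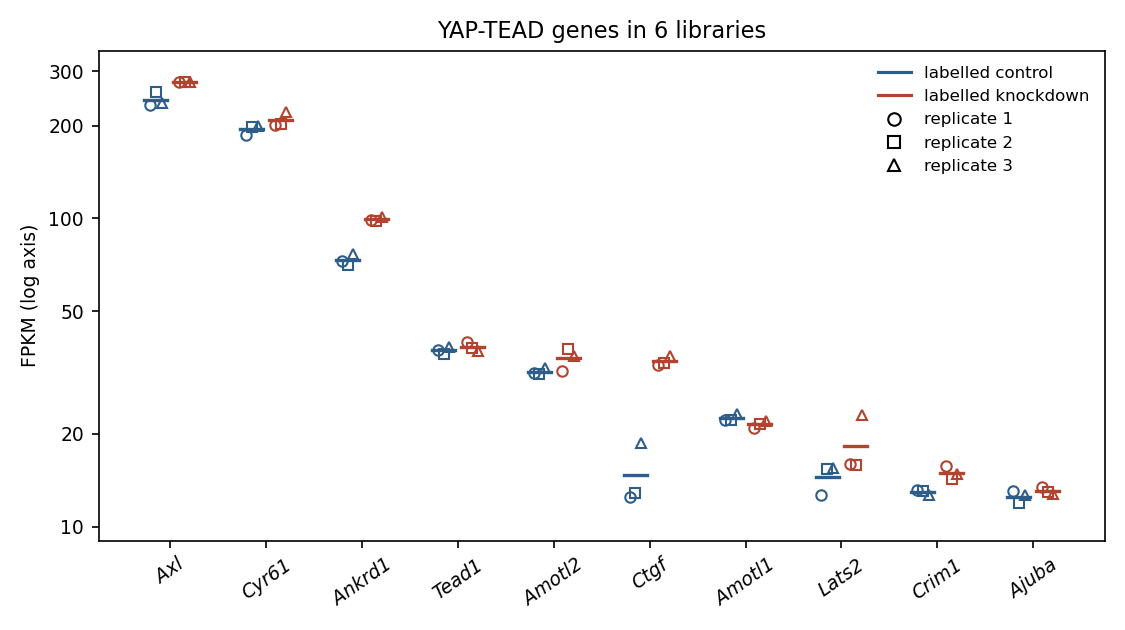
FPKM of the 10 genes (log axis) in each library, with bars at the group means, ordered by the mean over all 6 libraries. Ctgf and Ankrd1 separate by group, control 3 stands out for Ctgf and knockdown 3 for Lats2.

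Among the receptors and membrane proteins, Axl had different directions in FPKM and in fragments. Axl (ENSMUSG00000002602, chr7:25756500-25788924, minus strand), a receptor tyrosine kinase for GAS6 and the most abundant gene of the set, was at 276.7, 277.2 and 277.7 FPKM in the knockdown-labelled libraries and at 232.9, 256.5 and 236.8 FPKM in the control-labelled ones. The groups did not overlap, and the first group varied by 0.176% only. Axl did not pass (log2 0.20, SE 0.04, 95% interval 0.09 to 0.30, limma adjusted p = 0.0622). In CPM the order was not seen: the values were 835.1, 835.2 and 819.4 against 847.8, 860.5 and 834.5. EdgeR gave a log2 fold change of -0.03 (adjusted p = 0.521), and limma on log2 CPM gave the same value with a 95% interval of -0.09 to 0.03.

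Crim1 (ENSMUSG00000024074, chr17:78200233-78376592, plus strand), a transmembrane protein with cysteine-rich repeats that binds BMPs, had alike values in both units. It was at 15.7, 14.3 and 14.8 FPKM in the knockdown-labelled libraries and at 13.1, 13.044 and 12.6 FPKM in the control-labelled ones, with no overlap. Its log2 fold change was 0.21 (SE 0.07, 95% interval 0.05 to 0.36) and did not pass in limma on FPKM (adjusted p = 0.134). On fragments Crim1 rose in edgeR (log2 0.22, adjusted p = 0.0133), in DESeq2 (adjusted p = 0.0388) and in limma on log2 CPM (adjusted p = 0.0189). Of the other TAM receptors and ligands, Pros1, a ligand, averaged 15.4 against 13.2 FPKM and was called higher by edgeR (adjusted p = 0.0409) but not by limma on FPKM (0.157) or DESeq2 (0.0699). Mertk (7.38 against 7.55 FPKM) and Tyro3 (3.65 against 3.38) did not pass, and Gas6 was too low to test. Limma called 0 of these 4 tested genes, Axl included, with 2 at an unadjusted p under 0.05. Over all tested genes these shares were 3.44% and 22.4%. EdgeR called 1 of the 4, against 9.95% of all genes. DESeq2 called 0 of the 3 to which it gave an adjusted p, against 400 higher and 323 lower of 7714 genes with one. Of the 5 it fitted, 1 (Pros1) had an unadjusted DESeq2 p under 0.05, a share not computed over all genes.

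The feedback inhibitors of YAP did not pass in limma or edgeR. Lats2 (ENSMUSG00000021959, chr14:57689662-57746212, minus strand), one of the LATS kinases that phosphorylate YAP, was at 16.0, 15.8 and 23.0 FPKM in the knockdown-labelled libraries and at 12.7, 15.4 and 15.5 FPKM in the control-labelled ones. Knockdown 3 alone stood high, and knockdown 1 and 2 lay just above the highest control. In log2 terms Lats2 differed by 0.31 (SE 0.16, limma adjusted p = 0.292), which was 0.14 without knockdown 3 (adjusted p = 0.499). In CPM Lats2 overlapped, at 68.4, 73.4 and 72.4 against 67.3, 69.3 and 74.8, and knockdown 3 did not stand out (edgeR log2 0.02, adjusted p = 0.869).

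Amotl2 and Amotl1 encode angiomotin family scaffolds that hold YAP at junctions and actin. Amotl2 (ENSMUSG00000032531, chr9:102717091-102733418, plus strand), itself a YAP target, was at 31.9, 37.8 and 35.8 FPKM in the knockdown-labelled libraries and at 31.5, 31.3 and 32.8 FPKM in the control-labelled ones. Knockdown 2 was highest and knockdown 1 lay within the controls (log2 0.14, SE 0.07, limma adjusted p = 0.298). On fragments its log2 fold change was 0.0026 (edgeR adjusted p = 0.978). Amotl1 (ENSMUSG00000013076, chr9:14541966-14662974, minus strand) was the only member below 0 in FPKM, at 21.0, 21.5 and 22.1 FPKM in the knockdown-labelled libraries against 22.1, 22.2 and 23.2 FPKM. The groups failed to overlap by a narrow margin (log2 -0.06, SE 0.06, limma adjusted p = 0.535; edgeR -0.08, adjusted p = 0.198). The founding member Amot averaged 7.95 ± 0.448 against 9.82 ± 0.721 FPKM (SD, n = 3 each) and did not pass (limma adjusted p = 0.118).

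Ajuba (ENSMUSG00000022178, chr14:54567469-54577661, minus strand), a LIM adaptor that binds and restrains LATS kinases, was at 13.4, 13.003 and 12.8 FPKM in the knockdown-labelled libraries and at 13.1, 11.9 and 12.6 FPKM in the control-labelled ones. The groups overlapped (log2 0.06, SE 0.07, 95% interval -0.10 to 0.23, limma adjusted p = 0.632). Tead1 (ENSMUSG00000055320, chr7:112679356-112906784, plus strand), the DNA-binding partner, was at 39.8, 37.9 and 37.1 FPKM in the knockdown-labelled libraries and at 37.4, 36.4 and 38.4 FPKM in the control-labelled ones, again with overlap (log2 0.03, SE 0.05, 95% interval -0.09 to 0.15, limma adjusted p = 0.736). In CPM Tead1 did not overlap, at 353.0, 348.7 and 355.2 against 340.0, 318.4 and 321.3, and it did not pass in edgeR (log2 0.11, adjusted p = 0.0759).

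Across the set, limma on FPKM called 2 of 10 genes, both higher, where 1.83% of all tested genes were called higher and 3.44% in either direction. An unadjusted p under 0.05 was reached by 4 (Ctgf, Ankrd1, Axl and Crim1), against 22.4% of all tested genes. EdgeR on fragments called 3 of 10 higher (Ctgf, Ankrd1 and Crim1), against 5.45% of all genes called higher and 9.95% in either direction. DESeq2 and limma on log2 CPM called the same 3 genes, against 5.19% and 5.26% called higher. Groups did not overlap in FPKM for 6 members that were higher and 1 that was lower, against 13.3% and 15.6% of all tested genes (28.9% in either direction). In CPM this held for 4 higher and 1 lower, against 16.2% and 15.4% (31.6% in either direction). The median log2 fold change of the 10 was 0.17 in FPKM, beside -0.01 over all tested genes, and 0.09 in edgeR, beside 0.002. Since the members were chosen with earlier results of these data known, these counts describe the set.

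**Figure D2:**
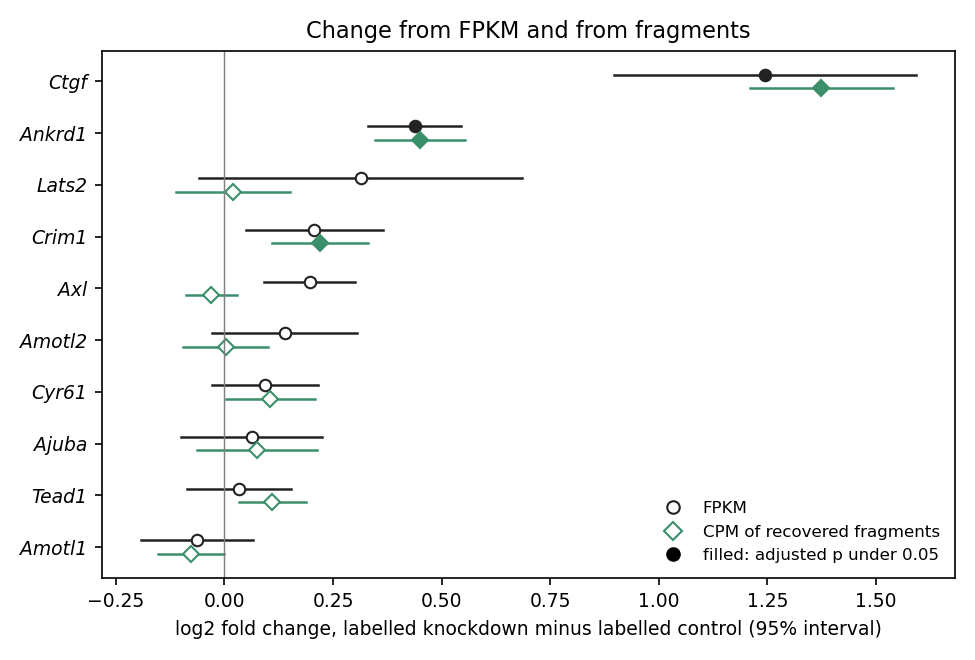
Log2 fold change (labelled knockdown minus labelled control) with its 95% interval for each gene from limma on FPKM (circles) and limma on CPM of recovered fragments (diamonds), filled where the adjusted p is under 0.05. The pairs lie close together for Ctgf, Ankrd1 and Crim1, while Axl moves from 0.20 to -0.03 and Lats2 from 0.31 to 0.02.

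Ordered by mean level per length, the members differed between the groups only in the place of Ctgf. Averaged over the 6 libraries the order was Axl (259.6 FPKM), Cyr61 (201.3), Ankrd1 (86.4), Tead1 (37.8), Amotl2 (33.5), Ctgf (24.6), Amotl1 (22.007), Lats2 (16.4), Crim1 (13.9) and Ajuba (12.8). In the control-labelled libraries Ctgf (12.5 to 18.7 FPKM) overlapped Lats2, Crim1 and Ajuba. In the knockdown-labelled ones it lay at 33.4 to 35.8 FPKM, within the range of Amotl2 (31.9 to 37.8). Tead1 and Amotl2 overlapped in the knockdown-labelled libraries, as did Amotl1 and Lats2. Lats2, Crim1 and Ajuba overlapped one another in the control-labelled ones. Axl, Cyr61 and Ankrd1 overlapped no other member.

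FPKM and count columns gave different results for some members, and their ratio showed where. FPKM divides fragments by a transcript length, so for a gene with a constant assigned length, FPKM per deposited count should be nearly constant across libraries. For Cyr61, Ankrd1, Ajuba and Crim1 it was, with the highest library 1.005 to 1.018 times the lowest. For Axl the ratio was 3.69, 3.71 and 3.79 FPKM per 100 counts in the knockdown-labelled libraries and 3.05, 3.30 and 3.14 in the control-labelled ones, without overlap. The ratio was 1.18 times higher in the first group, while the deposited counts of Axl averaged 7431 ± 85.7 against 7652 ± 118 (SD, n = 3 each). For Lats2 the ratio was 3.55 per 100 counts in knockdown 3 and 2.09 to 2.61 in the other 5 libraries. For Ctgf it was 5.24 in control 3 and 4.14 to 4.199 in the other 5, which is the library that stood high in FPKM. Amotl2 and Tead1 also varied by over 1.1 times, giving 5 of 10 members, where 42.5% of 10644 genes did so. A log2 fold change of opposite sign in limma on FPKM and edgeR on fragments was found for 12.4% of all genes and for 1 member, Axl. Which transcripts and lengths were used is not given in the sources used here, and the cause of these ratios was not tested.

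**Figure D3:**
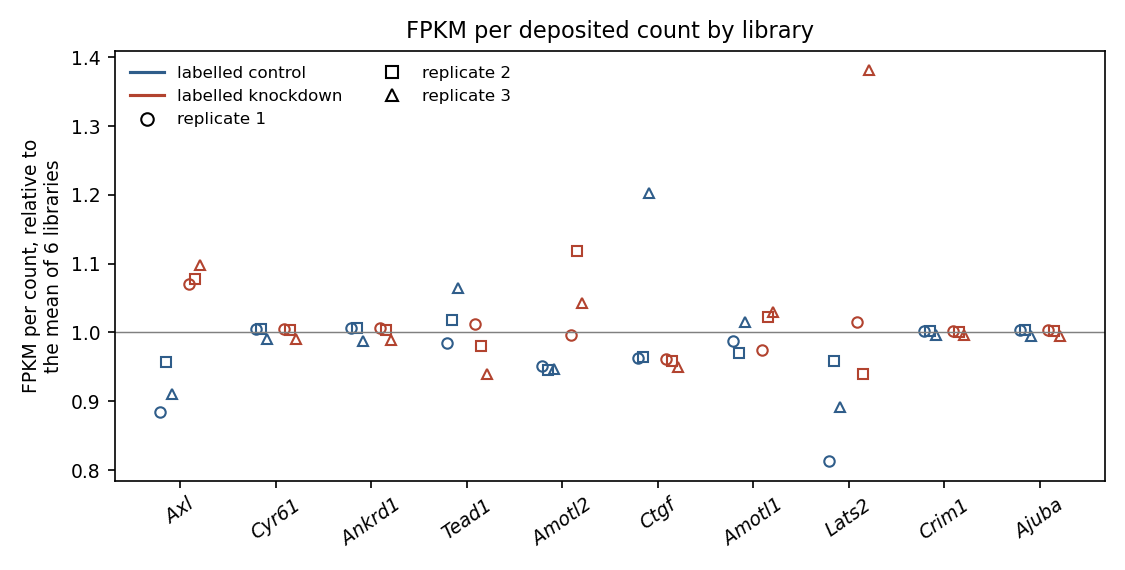
FPKM per deposited count in each library, divided by the gene's mean over the 6 libraries, for the 10 genes in order of level. Axl splits by group, and single libraries stand out for Lats2 (knockdown 3) and Ctgf (control 3).

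The regulators upstream of the targets did not pass in limma. YAP itself (Yap1) averaged 34.9 ± 2.07 against 32.1 ± 1.31 FPKM (SD, n = 3 each; log2 0.12, limma adjusted p = 0.31, edgeR adjusted p = 0.106). TAZ (Wwtr1) averaged 38.1 ± 3.06 against 40.2 ± 1.95 FPKM (log2 -0.08, limma adjusted p = 0.555). Of 8 tested YAP, TAZ, TEAD and VGLL factors limma called 0, with 1 at an unadjusted p under 0.05, and edgeR called 1. Over all tested genes limma called 3.44%, with 22.4% at an unadjusted p under 0.05, and edgeR called 9.95%. DESeq2 called 0 of the 5 to which it gave an adjusted p, and Vgll3 was not among those 5. Over all genes with an adjusted p, it called 400 higher and 323 lower of 7714. Of the 9 factors it fitted, 3 (Tead1, Yap1 and Vgll3) had an unadjusted DESeq2 p under 0.05, a share not computed over all genes. The gene called by edgeR was Vgll3, a TEAD cofactor named after its values were seen, at 4.23, 3.98 and 3.85 against 2.996, 2.25 and 2.03 FPKM. Its groups did not overlap (log2 0.73, limma adjusted p = 0.0668, edgeR adjusted p = 0.0105). Tead2, Tead3 and Tead4 were lower than Tead1 per length, at 13.9, 7.14 and 5.90 FPKM in the control-labelled libraries, and Vgll4, a TEAD corepressor, averaged 22.2 against 22.8 FPKM.

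In the Hippo kinase core and its activators, limma called 0 of 17 tested genes (4 at an unadjusted p under 0.05). EdgeR called 1 of 18, and DESeq2 1 of the 16 to which it gave an adjusted p. Of all tested genes, limma called 3.44% (22.4% at an unadjusted p under 0.05) and edgeR 9.95%. DESeq2 called 5.19% of all genes with an adjusted p higher. The adaptor Sav1 averaged 65.4 against 59.3 FPKM, Mob1a, the LATS cofactor, 53.1 against 57.8, Map4k4, a kinase that can activate LATS, 53.8 against 54.6, and the upstream kinase Taok1 42.6 against 41.2. None of these passed in limma or edgeR. The gene called on fragments was the atypical cadherin Fat1, named after its values were seen, at 22.9, 23.6 and 22.7 against 19.1, 19.6 and 20.8 FPKM (limma adjusted p = 0.0875, edgeR log2 0.23, adjusted p = 0.00371). Lats1 averaged 34.9 against 34.0 FPKM. The list's median log2 fold change was -0.02, beside -0.01 over all tested genes.

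Among 8 angiomotins, LIM adaptors and other cytoplasmic regulators limma called 0 (3 at an unadjusted p under 0.05) and edgeR called 1. DESeq2 called 1 of the 7 to which it gave an adjusted p. The shares of all tested genes were 3.44% (22.4% at an unadjusted p under 0.05) in limma and 9.95% in edgeR. DESeq2 called 5.19% of all genes with an adjusted p higher. The gene called on fragments was Ptpn14, a phosphatase that binds YAP (24.1 against 22.4 FPKM, limma adjusted p = 0.387, edgeR log2 0.15, adjusted p = 0.0336). Frmd6, a FERM-domain activator of the pathway, averaged 34.2 against 31.0 FPKM and Limd1, a LIM adaptor related to Ajuba, 10.1 against 11.8, and neither passed.

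The wider 22-gene YAP signature shares 7 genes with the set. Of its 20 tested genes limma called 2 higher, Ctgf and Ankrd1, and 18 did not pass, with 8 at an unadjusted p under 0.05. EdgeR called 6 of 20 higher and DESeq2 6 of the 16 to which it gave an adjusted p, with 0 lower in either. Of all tested genes, limma called 1.83% higher, edgeR 5.45% and DESeq2 5.19%, and 22.4% had an unadjusted limma p under 0.05. Among the 13 tested genes outside the set limma called 0 (4 at an unadjusted p under 0.05) and edgeR called 3: Myof, Asap1 and Ptpn14. Myof, a membrane repair protein, was at 101.6 to 104.4 FPKM in the knockdown-labelled libraries and 93.8 to 94.5 FPKM in the control-labelled ones (limma log2 0.13, adjusted p = 0.102, edgeR adjusted p = 0.00965). Asap1, a GTPase-activating protein of focal adhesions, averaged 64.4 against 55.9 FPKM (limma log2 0.20, adjusted p = 0.103, edgeR adjusted p = 0.00565). Foxf2, a forkhead factor, ran the other way at 8.25 against 10.3 FPKM and did not pass (limma adjusted p = 0.115). The median log2 fold change of the 13 was 0.06 in FPKM and 0.14 in edgeR, beside -0.01 and 0.002 over all genes.

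**Figure D4:**
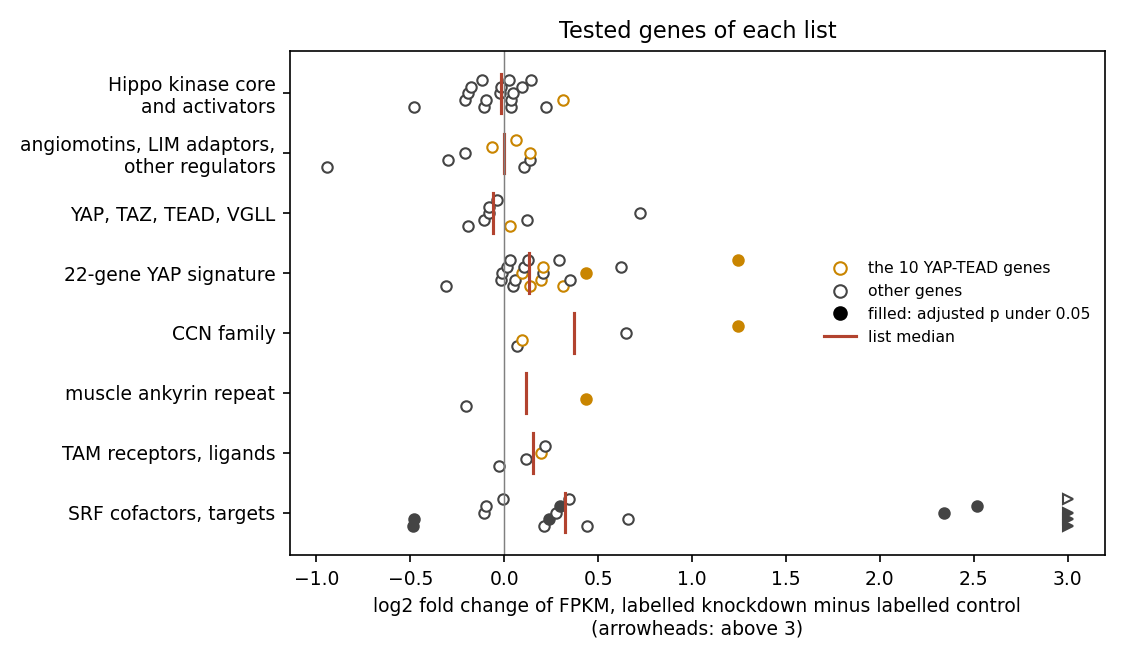
Log2 fold change of FPKM for each tested gene of 8 lists, with the 10 YAP-TEAD genes in amber, genes with an adjusted p under 0.05 filled, and list medians as bars. Filled points are Ctgf and Ankrd1 and 9 genes of the SRF list, Myocd included.

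Ctgf, Cyr61 and Ankrd1 are also known targets of TGF-beta through SMADs and of SRF, so other targets of both were read beside them. Among SMAD targets, the inhibitory Smad7 (20.3 against 23.0 FPKM), Skil (22.7 against 23.3), Tgif1 (57.4 against 66.3) and Bhlhe40 (60.6 against 70.3) did not pass in limma, and edgeR called Smad7 lower (log2 -0.21, adjusted p = 0.0457). Of 18 tested SRF cofactors and targets limma called 7 higher (Myocd, Acta1, Acta2, Actg2, Myl9, Vcl and Flna) and 2 lower (Egr1 and Fos). Their median log2 fold change was 0.32, and edgeR called 11 higher and 2 lower. Myocd, the gene targeted according to the labels, is included in these counts and in the median. Its own call says nothing about the other genes of the list. Of all tested genes, limma called 1.83% higher and 3.44% in either direction, and edgeR 5.45% and 9.95%. DESeq2 called 6 higher, Myocd among them, and 2 lower of the 13 to which it gave an adjusted p. It gave none to Acta1, Actg2, Myl9, Tagln, Fhl1 and Cnn1. Over all genes with an adjusted p, DESeq2 called 400 higher and 323 lower of 7714. Acta2, smooth muscle actin, was at 332.3 to 346.2 FPKM in the knockdown-labelled libraries and 63.1 to 71.5 FPKM in the control-labelled ones. The cofactors that SRF shares with actin signalling, Mkl1 (17.7 against 19.3 FPKM) and Mkl2 (13.8 against 8.52), and Srf (9.95 against 8.59) did not pass in limma or edgeR, and Mkl2 was another gene of opposite sign on fragments (log2 0.66 in FPKM, -0.13 in edgeR).

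The genes whose log2 FPKM followed Ctgf most closely over the 6 libraries, out of 8672 genes averaging 5 FPKM or more, were Sertad4, Tns1, Nipbl and Cep78 (Pearson r 0.995 to 0.998, n = 6 libraries). Sertad4 averaged 7.38 against 5.58 FPKM and Tns1, an actin-binding adhesion protein, 47.6 against 42.6. None of the 4 passed in limma (adjusted p = 0.0623 to 0.228). For Ankrd1 they were Rsad2, Gtse1, Gpnmb and Mlf2 (r 0.996 to 0.999), of which Rsad2, an interferon-induced antiviral enzyme (18.9 against 8.78 FPKM, limma adjusted p = 0.00503), and Gpnmb, a transmembrane glycoprotein (33.6 against 22.9 FPKM, adjusted p = 0.00717), rose. The 6 libraries share 2 groups, and the genes were picked on these same values, so a difference in the direction of Ctgf or Ankrd1 was built into the choice. Their values of r and adjusted p therefore describe those libraries only.

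**Figure D5:**
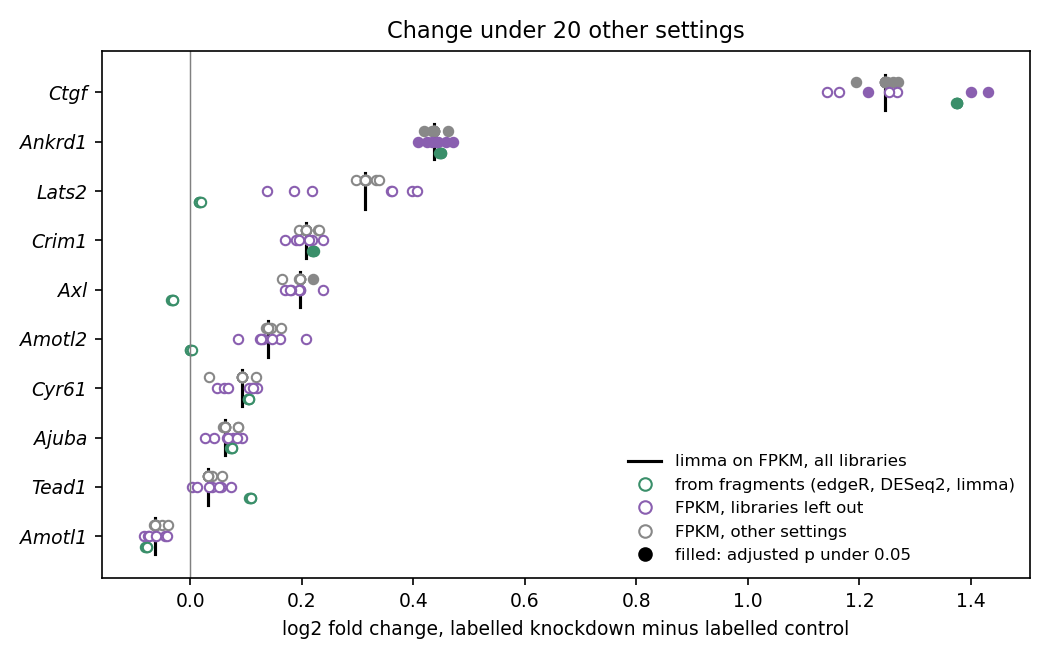
Log2 fold change of each gene under 20 other settings, by kind of setting, with the value from limma on FPKM of all libraries as a bar and settings with an adjusted p under 0.05 filled. Ankrd1 is filled throughout, Ctgf is open in 4 fits with 1 library left out, and Axl lies on both sides of 0.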

How the data were processed

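RNA freed of ribosomal RNA was read from 6 stranded libraries, per the labels' protocols. Cutadapt, HISAT2 2.0.4, Cufflinks and Cuffdiff 2.2.1 are named, per the submitters' processing notes, with the builds mm10 and mm9 and no roles. The counting's annotation and strand setting: not given in the sources used here. Per the file headers, the authors deposited FPKM values and counts per library for coding genes and for noncoding transcripts. The deposited counts are estimated counts: among coding genes 89.4% to 90.4% of values above 0 lay within 0.01 of a whole multiple of 1 constant per library (0.916 to 1.20), and division by it gave fragments. Rows of 79 repeated symbols were summed. Of the genes, 6275 matched a GRCm38 start after 1 was added to the table's start, against 472 without, so positions are those of RefSeq GRCm38 (mm10).

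Groups were compared with limma 3.58.1 (R 4.3.3, trended variance) on log2(FPKM + 0.1), two-sided, for genes reaching 0.5 FPKM in 3 or more of the 6 libraries. Benjamini-Hochberg adjustment ran over all tested genes, and an adjusted p under 0.05 counted as called. The pseudocount makes the fold changes of low genes too small. Rounded fragments were tested with edgeR 4.0.16 (quasi-likelihood, TMM scaling), with DESeq2 1.42.0 and with limma on log2 CPM with a prior count of 2, the last chosen after seeing the data. DESeq2 gave some list genes no adjusted p, and its list counts of called genes are of those with one. The fits were tested on simulated data. Libraries of a group differed by more than sampling noise (chi-square per gene 2.44 to 6.01), so none was counted as a copy. The limit from a count of 0 covers counting error only, while intervals of fold changes rest on the spread between libraries. Counts over the list of SMAD targets are not reported here. The members and lists were chosen with earlier results of these data known. Named genes are Myocd, the members, list genes that passed with up to 4 others of highest mean FPKM, and the 4 genes most like Ctgf and Ankrd1; others named, among them those called on fragments only, were chosen after their values were seen.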

Additional observations from a re-analysis of the deposited data

How the results depend on the processing

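Leaving out 1 library lowered the number of genes called from 400 to between 44 and 178, the members called from 2 to between 1 and 2, and the called genes of the 22-gene YAP signature likewise from 2 to between 1 and 2. Leaving out both replicate 3 libraries, chosen after seeing that they stand apart, gave 76 genes, with Ctgf at 1.40 and Ankrd1 at 0.46 on the log2 scale, both still called. Limma without trend gave 144 genes. Fragments gave 1150 with edgeR, 1168 with edgeR unfiltered, 723 with DESeq2 and 1110 with limma on log2 CPM, and each of these 4 called 6 genes of the signature. The log2 fold change of Axl reversed in all 4, to -0.0304 with edgeR, -0.0337 unfiltered, -0.0321 with DESeq2 and -0.0304 with limma, and that of Amotl2 to -0.00075 in unfiltered edgeR. The cause of these differences was not tested. The labels do not say what the replicate numbers stand for. Deviations of same-numbered libraries correlated at 0.04, -0.004 and 0.10, against -0.09 to 0.06 for other knockdown-control pairs. Knockdown 3 and control 3 shared some levels: Gas6 had 30 and 22 fragments there and at most 1 elsewhere, and Igfbp3 24 and 29 against at most 4. A common origin of these libraries was not tested. The limma fit with the replicate number as a block called 243 genes (2.09% of those tested), with Ctgf and Ankrd1 still called (adjusted p = 0.0245 and 0.0229). Axl passed with median centring only (adjusted p = 0.0499). The direction of the other 8 members was the same in all 20 settings. Each member had at least 318 fragments in every library.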
